A study of Homo sapiens with 6 samples.

Results

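The genes described here are 10 genes tied to leukemia stem cells, among the 31999 genes with a mean level in HEL cells, a line grown from a human erythroleukemia. CD93, SOX4, CD9, IL1RAP, TCF7 and CD24 had been chosen by their measured difference between HEL cells with a hairpin against TMIGD2 (shTMIGD2) and HEL cells with a non-targeting control hairpin (shCtrl), as stemness genes of that comparison, and CD34, CD38, PROM1 and CD44 were added as classical surface markers. All 10 had a row of their own under their gene name. The study sequenced 6 libraries of poly(A) RNA, 3 of shCtrl and 3 of shTMIGD2 cells, labelled as biological replicates of one cultured line. Cells of both groups carried a stably integrated lentiviral pLKO.1 hairpin and were selected in puromycin, and no untransduced HEL cells were analysed here. The values used are the authors' mean log2 CPM (CPM, the reads of a gene scaled to a common library total) over all 6 libraries of both groups. A mean over both groups carries no spread between libraries and no difference between the hairpins, so no error and no test stand beside any level, and whether a gene differed between shTMIGD2 and shCtrl cannot be read from it. In bulk RNA, fewer cells that express a gene and less RNA of it per cell cannot be told apart.

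Acute myeloid leukemia (AML) is kept going by leukemia stem cells (LSCs), cells at the top of a hierarchy that resembles normal blood formation. They are recognised by surface proteins shared with blood stem and progenitor cells, of which CD34 without CD38 is the classical combination, and by antigens such as IL1RAP, CD93, CD9, CD24 and CD44 in some leukemias. SOX4 and TCF7 are transcription factors of early blood and lymphoid progenitors that bind DNA through an HMG box, and TCF7 is a partner of beta-catenin in Wnt signalling.

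The members spread over a wide range of levels. Per kilobase of canonical transcript, the scale on which different genes can be compared, CD24 stood at 45.8 CPM and CD44 at 9.85 CPM. CD9, SOX4 and IL1RAP followed at 2.43, 2.05 and 1.97 CPM per kilobase, and CD34 at 0.340. TCF7, CD93, PROM1 and CD38 stood at 0.115, 0.0559, 0.0249 and 0.0234 CPM per kilobase. PROM1 and CD38 lie close to the lowest value of the table, so no fold is given over them. CD24 and CD44 were the 2 members above 3.49 CPM per kilobase, the median of the protein coding genes, and 8 members were under it. Of the protein coding genes, 90.2% were at or below CD24 per kilobase and 4.84% at or below CD38.

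**Figure D1:**
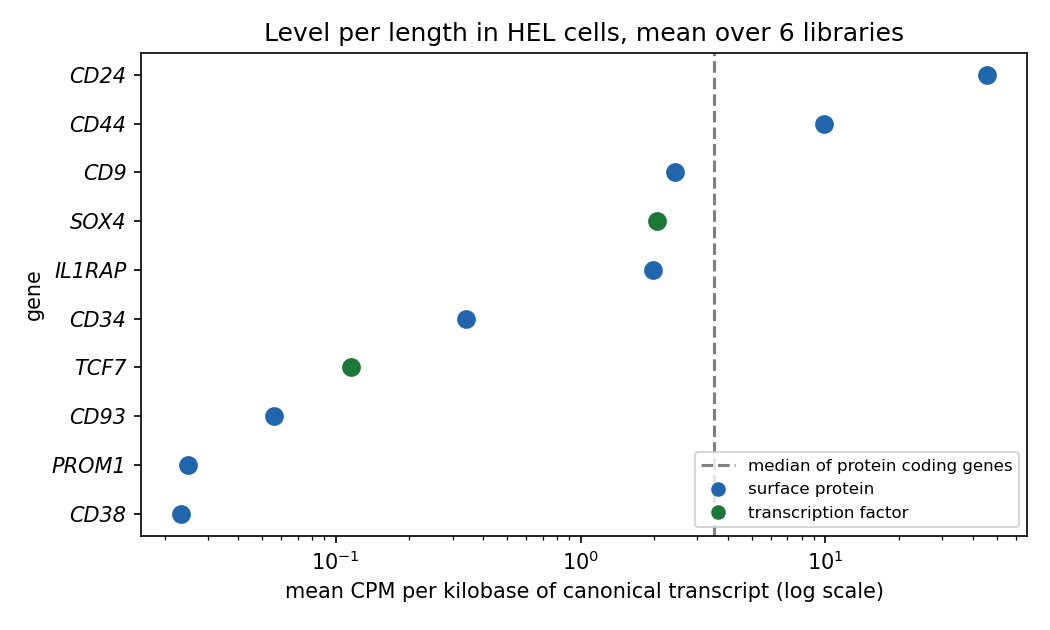
Mean CPM per kilobase of canonical transcript (log axis) for each of the 10 genes, as 1 point per gene with no error because the values are means over the 6 libraries. Blue points are surface proteins, green points transcription factors, and the dashed line is the median of the protein coding genes, 3.49, which CD24 and CD44 exceed.

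Without scaling for length, 6 members were at or above 1 CPM and 4 below it, whereas 43.8% of all genes listed and 69.0% of the protein coding genes matched were at or above 1 CPM. Without scaling for length, 6 members were above the median of all genes listed, and per kilobase 5 were above the median of the 23383 genes with a transcript length. No member lay between 0.5 and 2 CPM, so the count was 6 at each of these limits. The summed level of the 10 members was 178.2 CPM, and CD24 made up 55.4% of it. The median log2 CPM was 1.5 in the members and -0.97 in all genes listed, of which many are noncoding, against 3.63 in the protein coding genes.

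**Figure D2:**
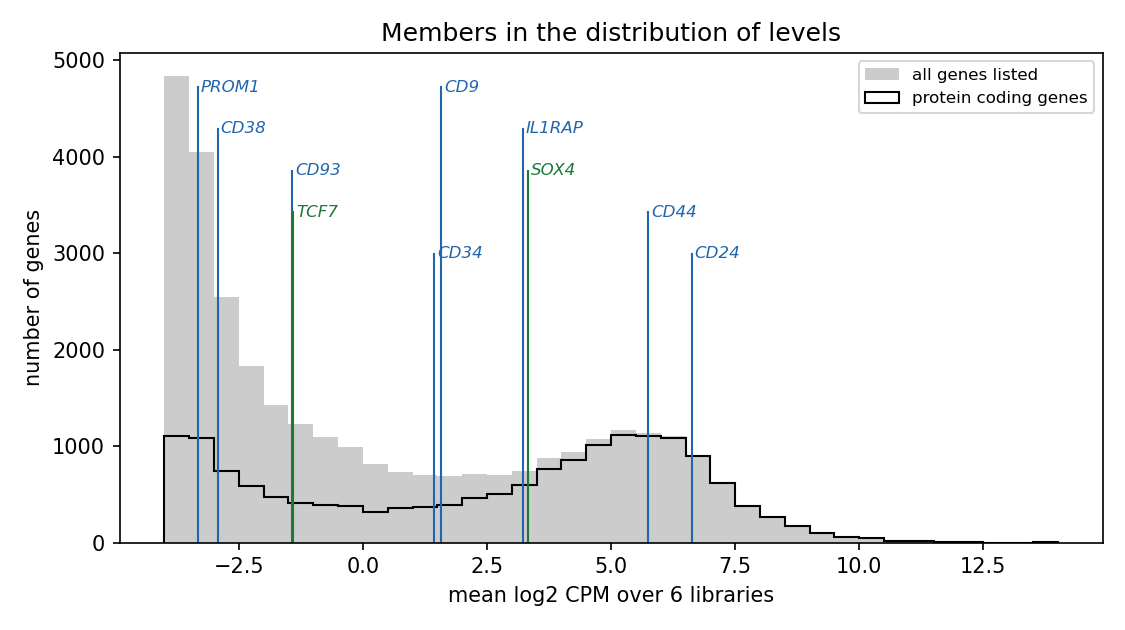
Number of genes (vertical axis) by mean log2 CPM over the 6 libraries, for all genes listed (grey) and for protein coding genes (black outline), with a line at each member. PROM1 and CD38 lie in the tall left end, TCF7 and CD93 next to it, and CD44 and CD24 in the hump of expressed protein coding genes.

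Reference sequence directly before a single RefSeq transcription start per gene (GRCh38.p14) is shown to put base composition next to the levels. For CD34, TCF7 and CD38 this start lies inside the GENCODE gene span given below, so it is not the outermost annotated start. Other starts were not examined. It is given for CD24, the highest member, for SOX4 at a middle level, and for CD34, TCF7 and CD38 at lower levels. Each line gives 120 bases of the promoter 5′ to 3′ in lower case, and capitals mark GC boxes (GGGCGG, the letters bound by SP1) and, in TCF7, a TATA box (TATAAA, read on the opposite strand).
CD24, chr6:106975628-106975747, minus strand: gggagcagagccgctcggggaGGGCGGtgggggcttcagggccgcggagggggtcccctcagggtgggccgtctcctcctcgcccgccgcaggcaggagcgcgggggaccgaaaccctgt
SOX4, chr6:21593631-21593750, plus strand: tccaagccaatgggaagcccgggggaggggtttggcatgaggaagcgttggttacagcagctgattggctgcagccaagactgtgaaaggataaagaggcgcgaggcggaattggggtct
CD34, chr1:207911126-207911245, minus strand: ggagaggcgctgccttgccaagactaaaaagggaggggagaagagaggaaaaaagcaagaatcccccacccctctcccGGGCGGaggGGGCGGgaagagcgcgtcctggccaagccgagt
TCF7, chr5:134115493-134115612, plus strand: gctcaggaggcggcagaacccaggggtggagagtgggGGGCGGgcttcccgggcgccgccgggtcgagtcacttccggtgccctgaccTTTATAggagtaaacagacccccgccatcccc
CD38, chr4:15778208-15778327, plus strand: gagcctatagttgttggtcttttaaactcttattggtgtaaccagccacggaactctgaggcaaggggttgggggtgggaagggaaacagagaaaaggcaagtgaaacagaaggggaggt

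Promoter windows of 300 bases, from 250 before to 50 after that RefSeq start, were matched for 9 of the 10 members, all but CD93. In all of these except CD24 and SOX4, the start lies inside the GENCODE gene span. The ratio of observed to expected CpG dinucleotides, which is high in CpG islands, was 0.902 in IL1RAP and 0.195 in CD38, the extremes of the 9. CD24 had 0.767, and SOX4, with a higher level than CD34, TCF7 or PROM1, had a lower ratio than these at 0.485. The median ratio was 0.646 in the 6 members at or above 1 CPM (0.485 to 0.902) and 0.679 in 3 members below it (0.195 to 0.688), so the ranges overlapped. Over all genes with a window, the median was 0.843 at or above 1 CPM and 0.491 below it. The higher members thus had a lower median than genes of their level class, and the lower members a higher one. Across all 14261 genes with a window and a level, the ratio and the level per kilobase went together with a Spearman rho of 0.39, a description over genes that are not independent of each other.

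**Figure D3:**
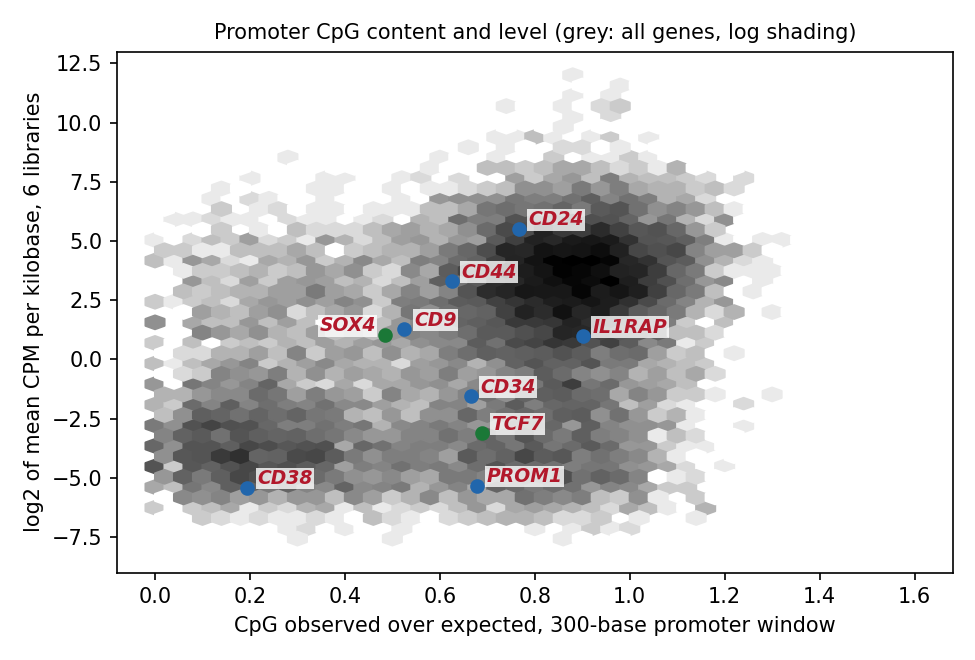
Observed over expected CpG in the 300-base promoter window (horizontal axis) and log2 of mean CPM per kilobase (vertical axis) for the 9 members with a window (blue, surface proteins; green, transcription factors), over all genes as grey hexagons shaded by their number on a log scale. CD38 stands apart from the other members at 0.195, and PROM1, TCF7, CD34 and CD24 share a narrow band of ratios over the whole range of levels.

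Of 8 motifs searched on both strands of these windows, 3 were found in members. The GC box was in 5 of the 9 windows (CD24, CD44, IL1RAP, TCF7 and CD34, with 2 matches each in CD44, IL1RAP and CD34), against 44.6% of the 27303 promoters of the table and 70.2% of those of genes at or above 1 CPM. The core of the cyclic AMP response element (TGACG, a part of the site bound by CREB) was in the windows of CD24 and CD9, 2 of 9. It was in 25% of all promoters and 34.8% of those of genes at or above 1 CPM. The TATA box was in TCF7 alone, against 11.95% of all promoters and 5.23% of those of genes at or above 1 CPM. The full cyclic AMP response element (TGACGTCA, which contains that core) was in none of the 9 windows. It was in 1.98% of all promoters and 3.23% of those of genes at or above 1 CPM. The letters AGATAA of GATA factors, TGTGGT of RUNX factors, CTTTGA of TCF and LEF factors and the E-box CACGTG were also in none of the 9. Their shares were 10.5%, 13.1%, 13.1% and 7.44% of all promoters. Among promoters of genes at or above 1 CPM they were 5.19%, 8.88%, 8.59% and 10.2%. A match or its absence concerns only these letters in this window.

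Among the surface proteins, CD24 is a short glycosylphosphatidylinositol-anchored sialoprotein that binds P-selectin and SIGLEC10. The gene (ENSG00000272398.6) spans chr6:106969831-106975627 on the minus strand (GRCh38 with GENCODE 44, as for all positions of genes here), and its canonical transcript of 2156 bases has 240 coding bases in 2 exons, so most of its length is noncoding. Its mean was 98.7 CPM over the 6 libraries, a mean log2 CPM of 6.63. Processed copies of CD24 can share its reads, and CD24P4 and CD24P2 were listed at 0.752 and 0.1000 CPM, so the level of CD24 is uncertain to the extent that reads were split among them. Of its partners, SELP, the gene of P-selectin, was at 73.5 CPM and SIGLEC10 at 6.43 CPM, which on a length scale were 23.3 and 1.99 CPM per kilobase.

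CD44, the receptor for hyaluronan, was at 53.5 CPM. It lies on chromosome 11 from 35138882 to 35232402 with 18 exons in its canonical transcript and 38 annotated transcripts, of which 26 are coding, and the value sums over its standard and variant forms. ESRP1, a splicing factor that favours the variant exons of CD44 in epithelial cells, was at 2.14 CPM and ESRP2 at 0.221 CPM. LYVE1, the other hyaluronan receptor of the same family, was at 0.332 CPM per kilobase, so CD44 was 29.7 times as high. HMMR, a hyaluronan-binding protein of the mitotic spindle, was at 36.3 and HYAL2, a hyaluronidase, at 7.12 CPM per kilobase. Of the 8 genes fixed for hyaluronan and CD44 splicing, 7 had a value and 4 were at or above 1 CPM.

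CD9, a tetraspanin of megakaryocytes and platelets that groups integrins in the membrane, was at 2.97 CPM and, with a canonical transcript of 1225 bases, the shortest of the 10, at 2.43 CPM per kilobase. It lies on chromosome 12 from 6199715 to 6238271. CD81, its close relative and partner, was at 45.2 CPM per kilobase, 18.6 times as high as CD9. ITGB1, the integrin subunit that CD9 associates with, was at 96.5 CPM per kilobase, and IGSF8 and PTGFRN, the immunoglobulin proteins that bind CD9 and CD81, were at 8.54 and 6.63. All 4 partners stood above CD9. With the longest annotated transcript of 3345 bases in place of the canonical one, CD9 was at 0.889 CPM per kilobase, below SOX4 and IL1RAP.

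IL1RAP, the accessory chain that IL-1 and IL-33 receptors share, was at 9.34 CPM. It lies on chromosome 3 from 190514051 to 190659750, with 12 exons. Of the chains it pairs with, IL1RL1 (the IL-33 receptor ST2) was at 10.8 CPM per kilobase and IL1R1 at 0.112, so IL1RAP at 1.97 lay below the first and 17.5 times above the second. KIT, a receptor kinase that IL1RAP has been found to associate with, was 22.3 times as high as IL1RAP at 43.8 CPM per kilobase, whereas FLT3 was at 0.0330. In the IL-1 list, 14 of 17 genes had a value, and 7 of them were higher than IL1RAP per kilobase and 7 lower. The ligand IL1B had the highest level of the list per kilobase, at 85.9, and IRAK1 and MYD88, the kinase and the adaptor below the receptor, were at 53.3 and 14.6.

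CD34, a sialomucin of blood stem cells and endothelium, was at 2.71 CPM, and its long canonical transcript of 7969 bases, of which 1155 are coding, put it at 0.340 CPM per kilobase. It spans chr1:207880972-207911402 on the minus strand. Its relatives were higher, PODXL2 at 4.11 and PODXL at 1.09 CPM per kilobase. CD38, the NAD-consuming ectoenzyme that classical sorting schemes set against CD34, was at 0.132 CPM on chromosome 4 from 15778275 to 15853232. That is 1.79 times the lowest value of the whole table, 0.0736 CPM. BST1, the other enzyme of its family, was at 2.79 CPM per kilobase, against 0.0234 for CD38. PROM1, the membrane glycoprotein CD133, was at 0.1000 CPM, 1.36 times the lowest value of the table, at chr4:15963076-16084378 on the minus strand. Its relative PROM2 stood at 0.0244 CPM per kilobase, next to PROM1 at 0.0249. Both stand at the lower end of the table, where the depth behind a value is unknown, and CD38 was above PROM1 without scaling for length and below it per kilobase.

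CD93, a C-type lectin receptor of endothelium, myeloid cells and some LSCs, was at 0.373 CPM, 5.07 times the lowest value of the table. Its gene, of 2 exons, spans chr20:23079360-23086324 on the minus strand. THBD, its neighbour on chromosome 20 and a member of the same family, was at 0.0769 CPM per kilobase against 0.0559 for CD93, and CD248 at 0.0330. MMRN2, a matrix protein that binds CD93, was at 2.74 CPM.

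Among the transcription factors, SOX4 was at 9.99 CPM. It is a gene of 1 exon on chromosome 6 from 21593751 to 21598619. In the SOX family, 14 of the 18 other genes fixed had a value, of which 3 were at or above 1 CPM. SOX12, which is in the same group as SOX4 (SOXC), was 5.42 times as high as SOX4 per kilobase, at 11.1. SOX11, also of that group, was at 0.0158, the lowest of the family per kilobase. Without scaling for length SOX11 was at 0.142 CPM, above SOX17 at 0.0789 CPM among others. So close to the lowest value of the table, the order per kilobase depends on transcript length. SOX5 at 4.78 CPM per kilobase was the other SOX gene above SOX4, and 12 were below it.

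TCF7 was at 0.378 CPM, on chromosome 5 from 134114681 to 134151865. SKP1, at 98.0 CPM, overlaps it on the opposite strand. The libraries keep the strand, but whether the counting used it is not given in the sources used here, and without strand the reads of the shared stretch cannot be told apart. Of the other genes of its family, LEF1 was at 12.4 CPM per kilobase, TCF7L2 at 2.39 and TCF7L1 at 0.0969, against 0.115 for TCF7. TCF7 was only 5.14 times the lowest value of the table, so no fold is given over it. CTNNB1 (beta-catenin), the coactivator shared by the TCF and LEF genes, was at 79.4 CPM per kilobase. The corepressor TLE3 was at 28.0 and its relative TLE5 (listed as AES) at 56.8 CPM per kilobase. The corepressors TLE1, TLE2 and TLE4 were at 0.0203, 0.0281 and 0.0194 CPM per kilobase. Of the textbook targets of Wnt signalling in the list, NOTUM was at 3.998 and NKD1 at 0.306 CPM per kilobase, above TCF7, and AXIN2 and LGR5 were at 0.0210 and 0.0172, below it. Of the 20 genes fixed for this pathway, all 20 had a value, 14 were higher than TCF7 per kilobase and 6 lower.

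**Figure D4:**
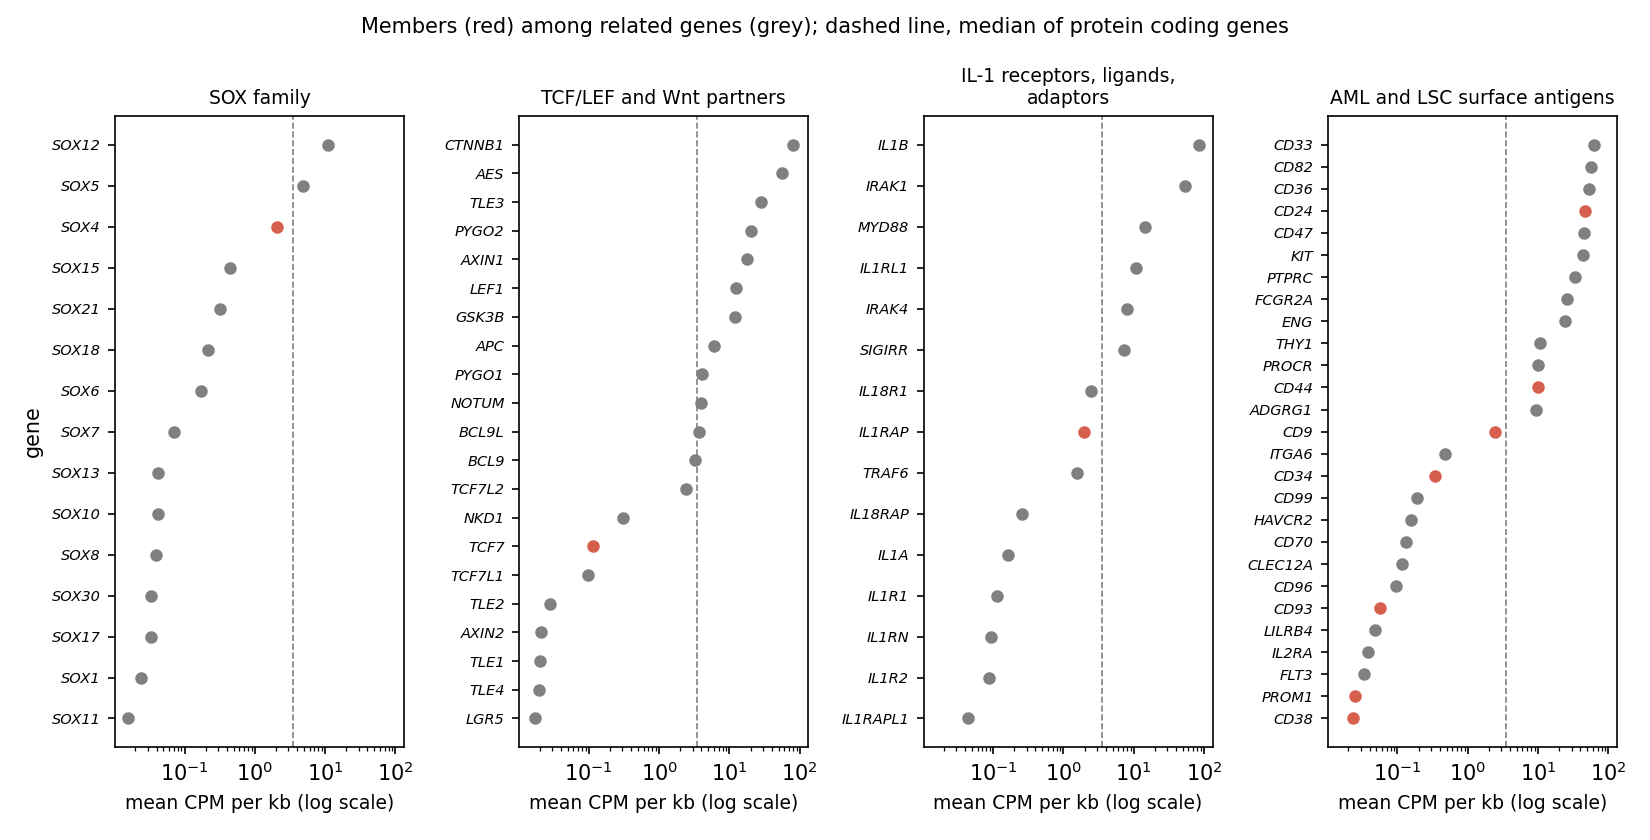
Mean CPM per kilobase of canonical transcript (log axis) of the members (red) and of related genes from fixed lists (grey), each panel ordered by level, with the median of protein coding genes, 3.49, as a dashed line. SOX4 has 2 genes above it in its family, TCF7 is in the lower part of its pathway, IL1RAP is in the middle of its list, and the surface members spread from CD24 near the top to PROM1 and CD38 at the bottom.

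Of 21 other surface antigens fixed for AML and LSCs, 20 had a value, and IL3RA (CD123) had no row under that name. Among these 20, CD24 was exceeded per kilobase by 3 (CD33, CD82 and CD36, at 62.1, 56.0 and 52.6). CD44 was exceeded by 10, CD9 by 11, CD34 by 12 and CD93 by 17. All 20 were higher per kilobase than PROM1 and CD38. Without scaling for length, FLT3, IL2RA, CD70 and LILRB4 were below CD38 at 0.132 CPM. LILRB4 at 0.0999 CPM was then next to PROM1 at 0.1000. These values lie near the lowest of the table, so their order is uncertain. CD33, the target of an approved antibody-drug conjugate, and CD47, which signals against phagocytosis and stood at 45.0 CPM per kilobase, were thus close to CD24. ADGRG1 (GPR56), an LSC antigen of CD34-positive AML, was at 9.47, next to CD44. CLEC12A, HAVCR2 (TIM-3) and CD96, also described on LSCs, were at 0.115, 0.155 and 0.0947, between CD34 at 0.340 and CD93 at 0.0559. CD99 was at 0.191 CPM per kilobase, and since it has copies on both sex chromosomes that share reads, this value is uncertain.

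The label of the line was checked on fixed markers. All 8 erythroid markers and all 5 megakaryocyte markers were at or above 1 CPM, with 45.8 to 2175 CPM and 56.9 to 1490.0 CPM. Of 7 monocyte or granulocyte markers with a value 2 were at or above 1 CPM, LYZ at 21.2 and CSF1R at 1.19, and MPO, ELANE, S100A8, FCN1 and CD14 were at most 0.157 CPM. CD2 was the single T cell marker of 3 above 1 CPM, at 7.74 CPM, with CD3G at 0.0789, and the B cell marker CD79A was at 5.01 CPM. Endothelial markers were at or above 1 CPM in 3 of 4 (PECAM1, KDR and CDH5), epithelial markers in 2 of 5 (KRT18 and KRT8) and fibroblast markers in 0 of 3. Their part in the members' levels was not tested. TMIGD2, the targeted gene, was at 16.9 CPM as a mean over both groups, which does not check the knockdown. Its ligand HHLA2 was at 0.0789 CPM, close to the lowest value of the table, 0.0736 CPM. The paper reports a hairpin knockdown of HHLA2 in HEL cells, judged by flow cytometry. The low RNA level here therefore does not show that the protein was absent.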

How the data were processed

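Poly(A) RNA of HEL cells was sequenced from strand-keeping libraries, 3 shCtrl and 3 shTMIGD2, grouped by their titles. The authors aligned reads to hg38 with STAR 2.6.1b and counted fragments per gene with HTSeq 0.6.1 on a refSeq annotation, as the methods and the submitters' processing notes state. The table also lists clone-style gene names, so which annotation its counts rest on is uncertain, and the GENCODE lengths used below may differ from the gene models counted. The deposited table holds 1 log2 CPM value per gene with no sample named, read here as an average over the 6 libraries. Its scaling, its prior count and whether CPM or its log was averaged are not given in the sources used here. The table also holds the authors' own comparison of the hairpins (fold changes with their F statistics, p-values and false discovery rates), which was not used. With no counts per library, depth is unknown and the planned count test could not be run.

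From the mean log2 CPM, CPM and CPM per kilobase of the Ensembl canonical transcript (GENCODE 44, GRCh38, the same build) were computed in Python 3.11.15 with pandas 2.3.3. Of the 31999 names, 22806 matched by symbol and 577 by a RefSeq synonym, giving 73.1% a length and 16659 protein coding genes. A spreadsheet had turned 24 names into dates. Levels were counted against 1 CPM, with 0.5 and 2 CPM as alternatives. Promoters come from RefSeq (GRCh38.p14), with a single start kept per gene symbol, and the motif search was tested on simulated data. The genes named are the 10 members, TMIGD2, HHLA2, the genes of each fixed list with the highest level and close relatives of members, and beyond these a few listed genes and the markers were named after their values were seen. The members and lists were chosen with earlier results of these data known. 1 B cell marker is not reported here.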

Additional observations from a re-analysis of the deposited data

How the results depend on the processing

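No paired analysis was possible because the table used has no values per library. For the same reason the test of shTMIGD2 against shCtrl and leaving out each library were not run. The count of members at or above 1 CPM was 6 with limits of 0.5 and 2 CPM as well. The count of members above the median level of the genes, without scaling for length, was 6 against all genes listed. It was 2 against genes at or above 1 CPM and 2 against protein coding genes, since both backgrounds have a higher median level than all genes listed. All 10 members also had a lower percentile among protein coding genes, of which 69.0% were at or above 1 CPM, against 43.8% of all genes listed. With the longest annotated transcript, the level per kilobase moved by over 1.5 times in 2 of the 10 members, CD9 and TCF7. With coding length it rose by over 1.5 times in 10. Coding length is shorter than the canonical transcript in each member, so a rise was fixed in advance. Under each of these, and with no scaling, 5 of the 10 members kept their place in the order: CD9 came after SOX4 and IL1RAP, and PROM1 after CD38. With the given strand alone, the count of member promoters moved for the TATA box, from 1 to 0, and not for the other 5 motifs that differ from their reverse complement. The depth behind each level is unknown, which limits TCF7, CD93, CD38 and PROM1 most.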
